A study of Mus musculus with 4 samples.

Results

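The locus described here is the chromosome 15 interval around Myc and its neighbour Pvt1, with the gene-poor desert on each side. Its members are the bins of 40 kb within 2 Mb of the Myc promoter bin in the mm9 genome. They number 101 of the 66382 bins of the bin table, and all 101 were kept in both matrices. Chromosome 15 holds 2588 bins, and 27 of the 101 bins overlap an annotated gene of any kind. The rule that defines the members used gene positions only and no contact value, although it was set with earlier results of these data known.

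Hi-C, which counts ligated pairs of DNA fragments as a measure of how often they lie together, was performed in male mouse embryonic stem cells (mESCs). Wild-type (WT) N3 cells grown in 2i medium were compared with Firre KO cells, which lack the locus of the long non-coding RNA Firre on chromosome X according to their label. The Firre KO cells were kept in 2i medium together with irradiated feeder fibroblasts that were depleted before use, so genotype and culture cannot be told apart, and the methods do not say whether both groups came from the same line. Each group had 2 libraries, described in the methods as technical duplicates, which the authors pooled into 1 matrix. No significance test could be run on 1 matrix each. Every interval below is a 95% interval that covers counting error only, because 1 pooled matrix holds no spread between replicates. Read pairs without molecular identifiers are not independent molecules, so these intervals may be too narrow even for counting error.

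Myc encodes a transcription factor of the basic helix-loop-helix leucine zipper family that drives growth and proliferation and takes part in the self-renewal of mESCs. Pvt1 is a long non-coding RNA gene just downstream, and the surrounding desert is known in several tissues for distant enhancers that act on Myc. Domains of chromosomes are bounded largely where cohesin, which extrudes loops of DNA, is halted by CTCF bound to motifs that face the loop.

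In the GENCODE annotation of mm9, Myc (ENSMUSG00000022346.8) lies on the plus strand at chr15:61816946-61821929, inside the promoter bin chr15:61800001-61840000. Pvt1 (ENSMUSG00000072566.3, a lincRNA) lies at chr15:61869542-62209651 on the same strand. It starts 52.6 kb after the Myc start and covers 10 bins, from 40 to 400 kb away. Distances below are counted from the Myc promoter bin and are negative on the upstream side. The upstream desert has 26 bins and ends at A1bg, a gene for a plasma glycoprotein. The downstream desert has 34 bins and ends at the cluster of gasdermin C genes, which encode pore-forming proteins.

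Sequences were taken from the mm9 reference to show where the contact maps could be read most closely and where CTCF motifs lay beside the contacts described below. Capitals in the first pair mark AAGCTT, the site cut by HindIII, and capitals in the others mark a match to the core of the CTCF motif, printed on the strand on which it matched. The first site opens the HindIII fragment of 1361 bp that holds the Myc start and the second opens the fragment of 1353 bp that holds the Pvt1 start.
HindIII site before Myc, chr15:61815715-61815744, plus strand: aataaaaggggaAAGCTTgggtttgtcctg
HindIII site before Pvt1, chr15:61869116-61869145, plus strand: gggaagactgctAAGCTTcaaggtgaaggg
CTCF core upstream, chr15:60934118-60934147, plus strand: ctttaatgaCCAGTAGAGGGCcccagagac
upstream CTCF core in the bin at -640 kb, chr15:61162655-61162684, minus strand: aagcatgttCCAGTAGGTGGCtcagtatta
CTCF core before Myc, chr15:61814977-61815006, plus strand: tctctgtggCCAGTAGAGGGCacacttact
CTCF core in Pvt1, chr15:61897079-61897108, minus strand: tcagacacaCCAGCAGAGGGCatcagatct
second CTCF core in Pvt1, chr15:62166348-62166377, minus strand: ctggggactCCAGCAGGTGGCccctgaact
CTCF core downstream, chr15:63603327-63603356, minus strand: caattgtcgCCAGCAGATGGCagcattgtc
The core before Myc began at position -1960 relative to the Myc start, and the upstream core at -882819. Both faced downstream, whereas the core at -654282, which also lies in the upstream desert, the cores in Pvt1 and the one at 1786390 bases faced upstream. Of the cores of the window that are not printed, those at -1888063 and -1291475 faced downstream and those at -569571 and 827895 faced upstream, so the upstream desert held cores in both directions. Both strands were searched, overlapping matches were allowed, and 10 of the 101 bins (9.90%) held a match, compared with 16.5% of all autosomal bins of the same length. A match is a description of the letters and not evidence that CTCF was bound in these cells.

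Depth set how finely the locus could be read. WT had 65611035 read pairs in all and the Firre KO-labelled matrix 46635652, of which 16.1% and 35.6% joined different chromosomes. The Myc promoter bin took part in 4002 read pairs in WT and in 3016 in the Firre KO-labelled matrix, more than the autosomal medians of 1896 and 1365. It held 14 HindIII sites, compared with an autosomal median of 12. The 3 bins over Firre itself still held between 1035 and 2011 read pairs each in the Firre KO-labelled matrix, above the X chromosome median of 600, and between 1025 and 1782 in WT. Therefore the groups are named here by their labels. Between the Firre bins and the Myc window 2 read pairs were counted in WT and 3 in the Firre KO-labelled matrix, against 0.826 and 2.84 expected from the window's share of read pairs between chromosomes.

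Contacts are given as observed over expected (O/E). This is the corrected contact signal of a set of bin pairs divided by the mean signal of all chromosome 15 pairs at the same distances, so that 1 is the chromosome's average. The Myc promoter bin contacted Pvt1 more than it contacted the opposite side in both matrices, and the gap was smaller in the Firre KO-labelled matrix. With the 10 Pvt1 bins, the O/E of Myc was 1.26 (1.18 to 1.34) from 1105 read pairs in WT and 1.08 (0.983 to 1.18) from 535 read pairs in the Firre KO-labelled matrix. The log2 ratio between the matrices was -0.22 (-0.38 to -0.06). With the 10 bins at the same distances upstream, the O/E was 0.539 (0.482 to 0.600) from 369 read pairs and 0.765 (0.677 to 0.863) from 297 read pairs. The log2 ratio there was 0.51 (0.28 to 0.74). The 2 sides thus moved in opposite directions, and both intervals excluded 0.

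Within Pvt1, contacts with Myc rose above the chromosome's average with distance. Over the 5 nearest bins, which include the Pvt1 promoter, the O/E was 0.985 in WT and 0.877 in the Firre KO-labelled matrix, and the interval of their log2 ratio included 0 (-0.36 to 0.02). Over the 5 farther bins it was 2.04 (1.82 to 2.27) and 1.64 (1.39 to 1.93), with a log2 ratio of -0.32 (-0.59 to -0.04). The Pvt1 promoter bin itself adjoins the Myc bin. It was contacted by Myc at an O/E of 0.677 (0.574 to 0.792) in WT and 0.747 (0.596 to 0.924) in the Firre KO-labelled matrix, below the average for adjoining bins in both. Among single Pvt1 bins, the one at 360 kb, which holds the second of the printed Pvt1 CTCF cores, had the highest O/E in WT, 2.67 from 86 read pairs. It had 1.47 from 32 read pairs in the Firre KO-labelled matrix.

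Of the sums of Myc with Pvt1 and with each desert, the one with the upstream desert differed most between the matrices. Myc contacted its 26 bins at an O/E of 0.676 (0.619 to 0.738) from 575 read pairs in WT. In the Firre KO-labelled matrix the O/E was 1.298 (1.20 to 1.41) from 660 read pairs, although that matrix was shallower. The log2 ratio was 0.94 (0.77 to 1.11). Without the 10 bins opposite Pvt1, the remaining 16 bins rose further, from 1.11 (0.961 to 1.29) to 2.74 (2.46 to 3.06). Contacts with the downstream desert were above average in both matrices, at an O/E of 2.75 (2.52 to 3.001) from 603 read pairs in WT and 3.41 (3.12 to 3.73) from 573 in the Firre KO-labelled matrix. Their log2 ratio was 0.31 (0.14 to 0.49), and 0.55 from uncorrected read pairs or 0.59 with the mean of O/E over bin pairs.

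By distance, the interval of the log2 ratio excluded 0 in only some of the windows on each side. An interval that includes 0 does not exclude a difference. Upstream, the nearest window, 40 to 200 kb, was depleted in both matrices, with an O/E of 0.499 in WT and 0.575 in the Firre KO-labelled matrix, and the interval of the log2 ratio included 0 (-0.09 to 0.49). At 240 to 480 kb the O/E was 0.747 and 1.44, a log2 ratio of 0.94 (0.62 to 1.26). At 520 to 1000 kb it was 1.15 from 156 read pairs and 3.04 from 310, a log2 ratio of 1.41 (1.12 to 1.70). Between 1 and 1.5 Mb, a window of which only the nearest bin lies in the desert, it was 0.970 and 0.977, which did not differ detectably at 72 and 51 read pairs (-0.54 to 0.56). Between 1.5 and 2 Mb it was 1.07 and 1.26 (-0.49 to 0.98).

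Downstream the pattern was different. The nearest window, 40 to 200 kb, was 0.985 and 0.877, with an interval that included 0 (-0.36 to 0.02). The 240 to 480 kb window fell from an O/E of 2.09 in WT to 1.56 in the Firre KO-labelled matrix, a log2 ratio of -0.43 (-0.69 to -0.17). The 520 to 1000 kb window was 2.90 and 2.80, with an interval that included 0 (-0.30 to 0.20). The 2 farthest windows rose, from 2.26 to 4.26 between 1 and 1.5 Mb, a log2 ratio of 0.92 (0.50 to 1.34), and from 3.05 to 5.50 between 1.5 and 2 Mb, a log2 ratio of 0.85 (0.53 to 1.18). The Firre KO-labelled matrix therefore had fewer contacts of Myc at 240 to 480 kb downstream, and more at 240 to 1000 kb upstream and between 1 and 2 Mb downstream.

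**Figure D1:**
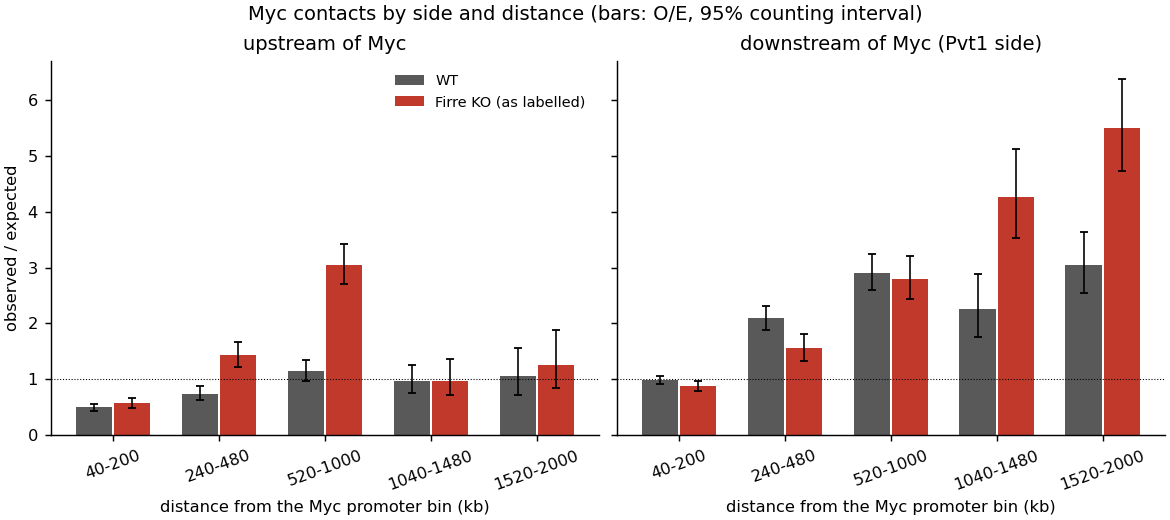
Observed over expected contacts of the Myc promoter bin (vertical axis, from 0) in 5 distance windows upstream (left) and downstream (right), for WT (grey) and the Firre KO-labelled matrix (red). Bars are O/E with 95% counting intervals, and the dotted line at 1 is the chromosome 15 average. The upstream window of 520 to 1000 kb rises from 1.15 to 3.04 and the farthest downstream window from 3.05 to 5.50.

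Because the anchor and the distances are the same on both sides, the log2 ratio of downstream over upstream O/E measures how far Myc leans to the Pvt1 side. Over 40 to 2000 kb it was 1.26 (1.13 to 1.40) in WT and 0.57 (0.43 to 0.72) in the Firre KO-labelled matrix, a difference of -0.69 (-0.88 to -0.49). When O/E was averaged over bin pairs in place of summing the signal, the lean in the Firre KO-labelled matrix was 1.09 and the difference -0.28. Without bins that overlap a gene, the lean was 1.97 in WT and 1.48 in the Firre KO-labelled matrix. That setting leaves out the 10 Pvt1 bins but keeps the 10 bins opposite them. Its sides therefore do not cover the same distances, and its values are not comparable with the others. At 40 to 200 kb the lean was 0.98 (0.77 to 1.19) in WT and 0.61 (0.33 to 0.88) in the Firre KO-labelled matrix, a difference of -0.37 (-0.72 to -0.02). At 240 to 480 kb the lean fell from 1.49 (1.21 to 1.76) to 0.12 (-0.19 to 0.42). At 520 to 1000 kb it was 1.34 (1.06 to 1.62) in WT and -0.12 (-0.37 to 0.13) in the Firre KO-labelled matrix. Between 1 and 1.5 Mb it increased instead, from 1.22 to 2.12, a difference of 0.91 (0.22 to 1.60). Between 1.5 and 2 Mb the difference, 0.61, had an interval that included 0 (-0.20 to 1.41).

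Single bins showed where these windows changed. Of the 100 bins around Myc, the interval of the log2 ratio lay above 0 for 20 and below 0 for 3. Among all 123825 chromosome 15 pairs at these distances, the shares were 2.64% above and 1.55% below. These shares are not matched for depth. The Myc bin had more read pairs than the autosomal median, and an interval excludes 0 more easily with more read pairs. Of the 20, 12 were upstream, between -880 and -160 kb, and the 3 lower bins were at 240, 360 and 480 kb downstream. A bin pair was called different where its O/E differed 2-fold or more between the matrices and 10 or more read pairs were expected in both. Of the 26 bins around Myc that could be called, 4 were higher in the Firre KO-labelled matrix and 0 were lower, compared with 4.03% higher and 10.5% lower among all 18696 such pairs of chromosome 15. The 4 bins were those at -640, -320, -280 and -160 kb, all in the upstream desert.

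The rule for the strongest partners of Myc was the highest O/E at 200 kb or more with 10 or more read pairs observed or expected. By that rule the strongest partners lay downstream in both matrices. In WT they were the bins at 1760 kb (5.73), 1680 kb (5.34), 800 kb (5.11), 1720 kb (4.51) and 960 kb (4.49). In the Firre KO-labelled matrix they were the bins at 1760 kb (9.89), 1600 kb (9.67), 1640 kb (9.23), 1360 kb (8.52) and 1720 kb (8.42). The bin at 1760 kb, chr15:63560001-63600000, was the strongest in both, with 29 read pairs (3.84 to 8.23) and 37 read pairs (6.96 to 13.6). It is the last bin of the downstream desert, next to the gasdermin C genes and to the bin that holds the downstream CTCF core. Among 2640 autosomal pairs at that distance with 3 or more expected read pairs in both matrices, this pair of Myc had the highest O/E in both matrices. The pair was picked as the maximum of the Myc profile in the same values, so this rank is a description. All bins listed had fewer than 10 expected read pairs and were admitted by their observed counts.

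The upstream bins with the highest O/E in the Firre KO-labelled matrix met that rule but ranked below the 5 strongest, and were picked after their values were seen. They are the 3 neighbouring bins at -880, -840 and -800 kb, chr15:60920001-61040000. In WT the bins at -840 and -800 kb lay below others upstream, such as those at -1160 kb (2.02) and -560 kb (1.71). The bin at -880 kb, which holds the upstream CTCF core printed above, had 27 read pairs with Myc in WT and 57 in the Firre KO-labelled matrix, O/E 2.03 (1.34 to 2.96) and 5.72 (4.33 to 7.41). The bin at -840 kb had 10 and 54 read pairs, O/E 1.02 (0.488 to 1.87) and 8.21 (6.17 to 10.7). The bin at -800 kb had 7 and 30 read pairs, O/E 0.883 (0.355 to 1.82) and 4.88 (3.29 to 6.97). Only the bin at -880 kb was above the chromosome's average in WT beyond its interval, and all 3 were in the Firre KO-labelled matrix. Each bin was set beside autosomal pairs at its distance with 3 or more expected read pairs in both matrices. Of 29409 such pairs for the middle bin, 0.0510% had an O/E as high in the Firre KO-labelled matrix and 33.0% in WT. A log2 ratio as high as its 3.01 (2.04 to 3.99) was found in 1.76% of them. The shares for the bin at -880 kb, in the same order and among pairs at its own distance, were 0.255%, 5.44% and 7.59%. For the bin at -800 kb they were 0.452%, 42.0% and 2.25%. Beyond that minimum, these pairs were not matched to those of Myc for expected read pairs.

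**Figure D2:**
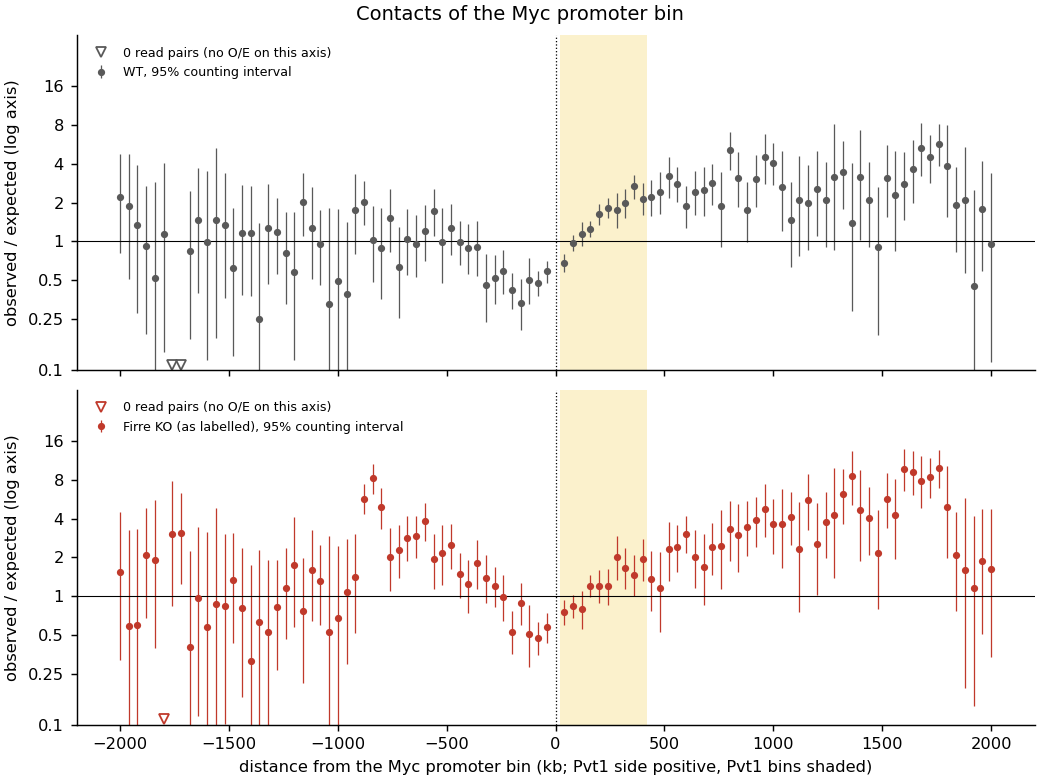
O/E of the Myc promoter bin with each 40 kb bin (log axis) against distance from Myc in kb, for WT (top) and the Firre KO-labelled matrix (bottom), with 95% counting intervals and Pvt1 shaded. Triangles mark bins with 0 read pairs. A peak at -880 to -800 kb reaches 8.21 in the Firre KO-labelled matrix, while the same 3 bins lie between 0.883 and 2.03 in WT.

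The upstream and downstream profiles differed in how much they resembled each other between the matrices. Across the 46 downstream bins at 200 kb or more, the O/E of Myc had a Pearson r of 0.57 and a Spearman rho of 0.53. Across the 46 upstream bins r was 0.04 and rho -0.01. These describe bins that share 1 anchor and 1 library pool each, and neighbouring bins are not independent. Most upstream bins beyond 1 Mb, and many downstream ones, held under 10 read pairs. Counting error lowers a correlation over such bins, and its share here was not tested.

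Contacts of the 3 upstream bins and of the 5 bins from 1600 to 1760 kb were also read for each of 27 anchor bins from -400 to 640 kb. Both patches were picked for their contacts with Myc, so the ranks of the Myc bin among the anchors are descriptions. With the upstream patch, the Myc bin ranked first of the 27 anchors in the Firre KO-labelled matrix, at an O/E of 6.24 (5.23 to 7.41) from 141 read pairs. The next anchor, at 240 kb in Pvt1, had 4.32 (3.12 to 5.86). In WT the Myc bin ranked 24 of 27, at 1.29 (0.923 to 1.76) from 44 read pairs. Pvt1 followed Myc in the Firre KO-labelled matrix: its 10 bins met the upstream patch at an O/E between 3.01 and 4.32, compared with 1.05 to 2.25 in WT. The bins beyond Pvt1 at 440 and 480 kb showed no such rise, with 1.97 and 1.91 in the Firre KO-labelled matrix and 2.92 and 3.31 in WT. They held 11 and 7 read pairs in the Firre KO-labelled matrix and 18 and 15 in WT. The intervals of their log2 ratios included 0 (-1.69 to 0.54 and -2.13 to 0.54). Those of the Pvt1 bins at 280 and 360 kb did as well (-0.14 to 1.92 and -0.24 to 1.41).

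With the downstream patch, the Myc bin again ranked first in the Firre KO-labelled matrix, at 9.03 (7.62 to 10.6) from 149 read pairs, and ranked 7 in WT, at 4.37 (3.53 to 5.37) from 97 read pairs. The Pvt1 promoter bin met this patch at 1.95 (1.26 to 2.90) in WT and 6.12 (4.57 to 8.06) in the Firre KO-labelled matrix, a log2 ratio of 1.65 (0.96 to 2.34). The last Pvt1 bin, at 400 kb, had 3.996 and 3.18, with an interval of the log2 ratio that included 0 (-0.92 to 0.26). The promoter end of Pvt1 thus differed between the matrices more than its 3' end did in contacts with the far downstream desert.

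**Figure D3:**
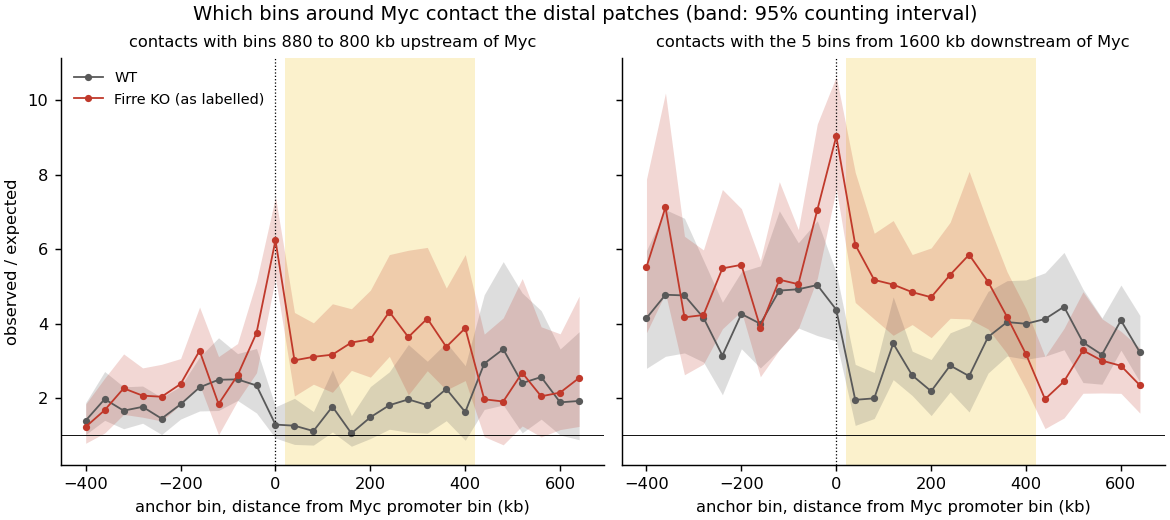
O/E of the 3 bins at -880 to -800 kb (left) and of the 5 bins at 1600 to 1760 kb (right) with each anchor bin around Myc (horizontal axis, kb from Myc, Pvt1 shaded), for WT (grey) and the Firre KO-labelled matrix (red). Bands are 95% counting intervals. The red curves peak at Myc, at 6.24 and 9.03, where the grey values are 1.29 and 4.37.

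The Pvt1 promoter, read as an anchor of its own, showed a partly different pattern. Its O/E with the upstream desert was below average in both matrices, 0.496 (0.427 to 0.578) in WT and 0.731 (0.614 to 0.872) in the Firre KO-labelled matrix. The log2 ratio was 0.56 (0.24 to 0.88), a rise as for Myc. With the downstream desert it rose from 1.27 (1.08 to 1.51) to 2.38 (2.05 to 2.76), a log2 ratio of 0.90 (0.59 to 1.20). With the rest of Pvt1 it had 1.01 (0.925 to 1.11) and 1.26 (1.12 to 1.42). The last bin of Pvt1 moved away from the upstream desert, from 1.76 (1.52 to 2.04) to 1.10 (0.879 to 1.39), a log2 ratio of -0.68 (-1.05 to -0.31).

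Over whole blocks, Pvt1 with the downstream desert had an O/E of 1.14 (1.09 to 1.19) from 2673 read pairs in WT and 2.05 (1.97 to 2.13) from 3307 in the Firre KO-labelled matrix. The log2 ratio was 0.85 (0.76 to 0.93). As a sum, contacts of the upstream desert with Pvt1, at 0.896 and 0.918, did not differ beyond counting error (-0.07 to 0.14). Of its 47 single pairs with 10 or more expected read pairs in both matrices, 6 were 2-fold or more higher and 10 lower. Among all such pairs of chromosome 15, 4.03% were higher and 10.5% lower. The 47 pairs were not matched to those for distance or expected read pairs, on which the share called depends. The 2 deserts contacted each other across Myc at an O/E of 2.17 (2.09 to 2.26) and 2.05 (1.956 to 2.14), above the chromosome's average in both matrices. Contacts within the upstream desert (1.01 and 1.09) and within the downstream desert (1.07 and 1.15) changed little by comparison.

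**Figure D4:**
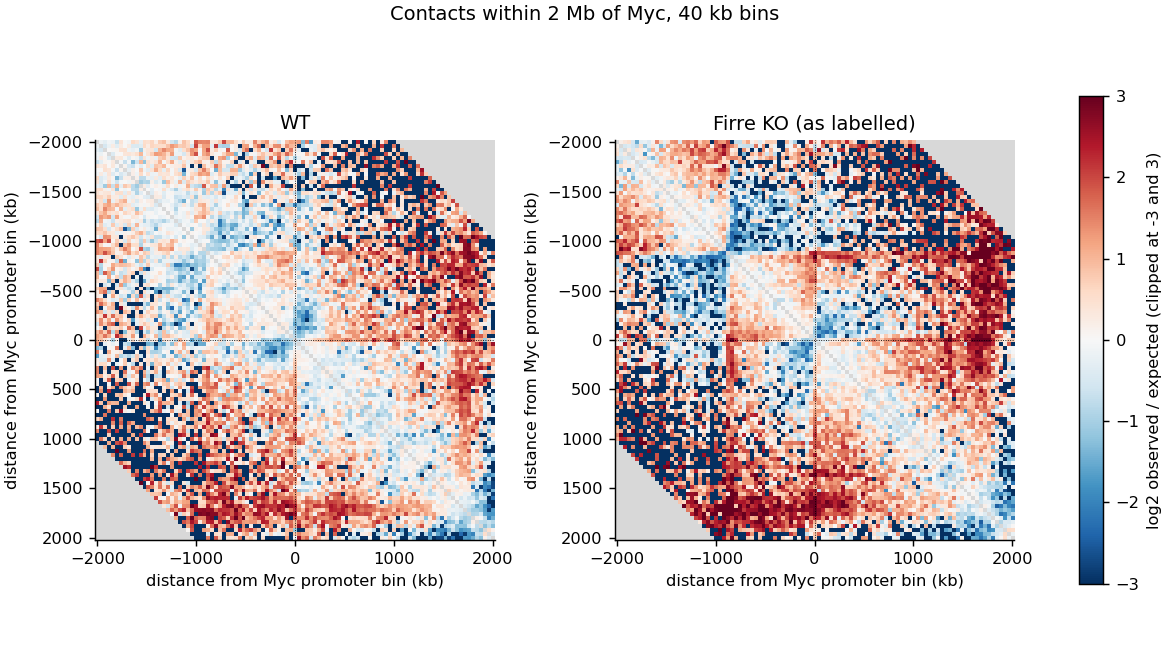
Maps of log2 O/E for all pairs of 40 kb bins within 2 Mb of Myc in WT (left) and the Firre KO-labelled matrix (right). Both axes are kb from the Myc promoter bin, colours are clipped at -3 and 3 with pairs of 0 read pairs drawn at -3, and grey pairs are beyond the distances computed or on the diagonal. Dotted lines mark Myc, and the block of Pvt1 with the downstream desert rises from an O/E of 1.14 to 2.05.

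Among all pairs of the 101 bins, 555 could be called, of which 39 were higher and 37 lower in the Firre KO-labelled matrix. That is 13.7%, near the 14.6% of all chromosome 15 pairs, so the locus as a whole did not stand out by number. The direction differed from the chromosome, where 754 pairs were higher and 1969 lower. Among the 47 pairs that join the 2 sides across Myc, 6 were higher and 10 lower (34.04%), compared with 33 and 27 of the 508 others (11.8%). All 47 joined the upstream desert to Pvt1. These pairs and the 508 others were not matched for distance or expected read pairs, on which the share called depends. In the window that share fell from 22.6% to 4.96% as the minimum rose from 5 to 20 expected read pairs.

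The other protein-coding genes within 2 Mb had few read pairs with Myc. The bin of Fam84b, at -1160 kb, had 14 in WT (O/E 2.02, 1.10 to 3.39) and 4 in the Firre KO-labelled matrix (0.768, 0.209 to 1.97). The A1bg bin had 10 and 9 read pairs, O/E 0.948 (0.454 to 1.74) and 1.31 (0.600 to 2.49). The bin shared by the promoters of Gsdmc, Gsdmc2 and Gsdmcl1 had 8 and 6, O/E 1.93 (0.832 to 3.799) and 2.07 (0.759 to 4.50). Gsdmc3, Gsdmc4, Gm7713 and 4933412E24Rik had between 1 and 6 read pairs in either matrix, and the promoter of Fam49b, at 2080 kb, lay outside the window. The intervals of the matrices overlapped for each of these genes, so no difference was detectable at this depth.

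The insulation score measures contacts that cross a bin, as the log2 of the mean signal in a square of 480 kb on the diagonal over the chromosome's mean, and low scores mark boundaries of topologically associated domains. At the Myc promoter bin the score with the interquartile mean of the study's settings was -0.08 in WT and -0.50 in the Firre KO-labelled matrix, a difference of -0.43. A difference as low was found in 21.6% of autosomal bins. With the plain mean, for which a counting interval could be had, the scores were -0.23 (-0.31 to -0.16) from 1757 read pairs and -0.79 (-0.90 to -0.67) from 790. The difference was -0.55 (-0.69 to -0.42), and 8.5% of autosomal bins had one as low. The difference was smaller with other squares, -0.25 for 240 kb and -0.13 for 960 kb with the interquartile mean, for which no interval was computed. Among promoter bins alone the shares were larger, 36.3% with the interquartile mean and 17.99% with the plain mean. Neither reached a drop of 1 or more, which 6.94% of autosomal bins showed with the interquartile mean and 1.5% with the plain mean.

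Boundaries were called within 2 Mb of Myc at 5 bins in WT and 3 bins in the Firre KO-labelled matrix. In WT they lay at -920 kb (strength 1.42), -80 kb (0.956), 600 kb (0.275), 1000 kb (0.220) and 1880 kb (2.99). In the Firre KO-labelled matrix they lay at -880 kb (3.19), 40 kb (2.10) and 1880 kb (3.45). The boundary at 1880 kb, among the gasdermin C genes, was in the same bin in both matrices and was the strongest of the 98 boundaries of chromosome 15 in WT and ranked 13 of 88 in the Firre KO-labelled matrix. The boundaries at -920 and -880 kb lay 1 bin apart. The nearest boundary was thus 80 kb upstream of the Myc bin in WT. In the Firre KO-labelled matrix it was called in the Pvt1 promoter bin, chr15:61840001-61880000, although the score of the Myc bin, -0.50, was lower than the -0.42 of that bin. With a square of 960 kb neither of these boundaries was called and the nearest lay 760 kb away in WT and 840 kb in the Firre KO-labelled matrix, and from uncorrected read pairs the latter matrix had its nearest boundary 80 kb away.

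Counted within 1 bin, 2 of the 5 WT boundaries were shared, as were 39 of 98 on chromosome 15 (39.8%) and 976 of 2201 on the autosomes (44.3%). The upstream CTCF core lies in the boundary bin at -880 kb. The bins next to the boundary at 40 kb hold the core before Myc on one side and the first core in Pvt1 on the other. No core lies within 1 bin of the WT boundaries at -80, 600 and 1000 kb or of the shared boundary at 1880 kb. For the shared boundary this depends on the setting. With a delta over 4 bins it was called at 1840 kb in both matrices, next to the bin that holds the downstream core.

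**Figure D5:**
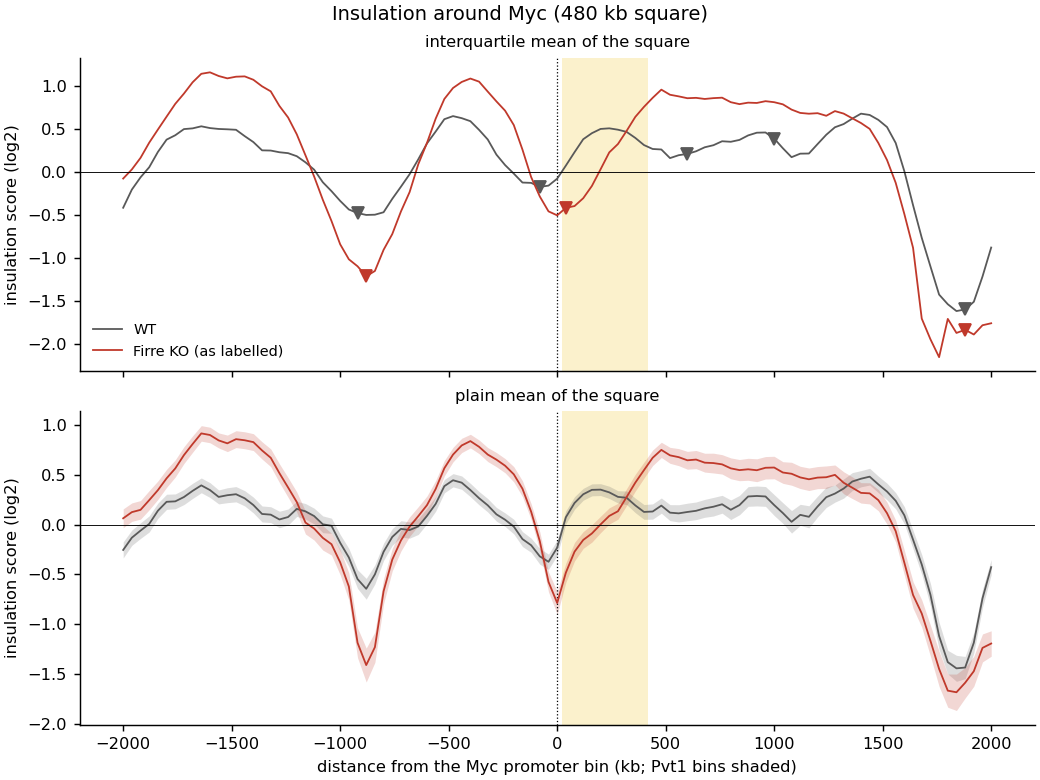
Insulation score (log2) of each bin against distance from Myc in kb, with the interquartile mean (top, triangles at called boundaries) and the plain mean (bottom, bands are 95% counting intervals), for WT (grey) and the Firre KO-labelled matrix (red), with Pvt1 shaded. At Myc the plain-mean score is -0.23 in WT and -0.79 in the Firre KO-labelled matrix, where its dip is centred on the Myc bin.

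Among the promoter bins of 20364 autosomal protein-coding genes, oriented by strand, Myc stood near the top for contacts downstream of its promoter. An O/E over 40 to 2000 kb as high as its 1.71 was found for 0.368% of genes in WT, and one as high as its 1.90 for 0.417% in the Firre KO-labelled matrix. Upstream, its O/E was 0.714 and 1.28. The log2 ratio of 0.84 there was matched or exceeded by 0.152% of genes, whose median was -0.11. Only 0.0589% of promoter bins rose 2-fold or more upstream, and Myc was not among them. A lean to the downstream side as strong as that of Myc was found in 1.33% of genes in WT and 19.4% in the Firre KO-labelled matrix, and a difference as low as its -0.69 in 5.51%.

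Other promoters beside large deserts leaned the same way in WT. The lean was 1.24 for Mycn, the paralogue of Myc, 0.73 for Sox9, a regulator of cartilage and gonad development, and 0.54 for Sox2, a core pluripotency factor. In the Firre KO-labelled matrix it was 0.95 for Mycn, 0.27 for Sox9 and 0.13 for Sox2. Their upstream log2 ratios between the matrices were also positive, 0.48 for Mycn, 0.50 for Sox9 and 0.36 for Sox2, beside the 0.84 of Myc. These 4 genes share both libraries, and no test of their difference was possible.

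The MYC network comprises Myc, Mycn and Mycl1, their partner Max, the repressors Mnt, Mga, Mxd1, Mxd3, Mxd4 and Mxi1 that also bind Max, and Mlx with its partners Mlxip and Mlxipl, which sense glucose. All 13 had values. A 2-fold or larger difference in lean was found for 1 of them, Max, with a log2 difference of -1.002, compared with 2.95% of all promoter bins. Their median difference in insulation score was -0.43 with the interquartile mean, which is the value of Myc itself, compared with -0.26 over all promoter bins. With the plain mean the medians were -0.32 and -0.21. The score was lower in the Firre KO-labelled matrix for 10 of the 13 under both, a share near the 72.2% and 73.2% of all promoter bins.

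The 5 genes whose contact profile was most like that of Myc, by Pearson correlation of log2 O/E over 20 values, were chosen among 17591 genes. They were Dpp10 (r = 0.92), which encodes a peptidase-like protein that binds potassium channels, Fat4 (0.89), an atypical cadherin, A930017M01Rik (0.89), Meis2 (0.88), a homeobox factor, and Csmd3 (0.86). Their upstream log2 ratios, between -0.03 and 0.34, were lower than the 0.84 of Myc.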

How the data were processed

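Hi-C was measured in 2 groups of 2 libraries each, pooled by the authors into 1 matrix per group. The authors mapped the reads to mm9 and filtered, binned at 40 kb and iteratively corrected them with HiC-Pro 2.7.8, so the deposited values are a corrected contact signal in which every kept bin has the same total. Groups were taken from the genotype label. All 22 chromosomes had the length of the mm9 reference.

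A corrected value is a count of read pairs times the weights of its bins. A fit of the weights recovered these counts, whole within 0.05 for 100% of values. O/E is the ratio of summed corrected signal to the summed chromosome 15 mean at the same distances, with gamma (Fay-Feuer) intervals, and log2 ratios have delta-method intervals, all at 95% with weights held fixed. Insulation was computed with an own implementation of the study's settings (square 480 kb, delta span 320 kb, smoothing 160 kb, boundary strength above 0). The delta was taken over 8 bins on each side and the smoothing over 5 bins. That reading was picked after several readings had been compared on chromosome X, and a delta over 4 bins was added as an alternative after the data were seen. Steps were tested on simulated data.

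The genes named are Myc, Pvt1, the protein-coding genes of the window, the MYC network list, Mycn, Sox2, Sox9, the 5 strongest bins per matrix, the boundary bins and the 5 genes most alike. The members and lists were chosen with earlier results of these data known, and the patches, the blocks, the anchors in Pvt1 and the motif counts were added later. Alternatives were uncorrected read pairs, an autosomal expected value, an anchor of 3 bins, a mean of O/E, bins without genes, other squares, the plain mean and other minimum counts. Python 3.11.15, numpy 2.4.6, scipy 1.17.1 and pandas 2.3.3 were used.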

Additional observations from a re-analysis of the deposited data

Results flagged for a closer look

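The lean of Myc contacts to the downstream side at 520 to 1000 kb had opposite signs in the 2 groups. The log2 ratio of downstream over upstream O/E was 1.34 in WT and -0.12 in the Firre KO-labelled matrix, from 1 matrix each. The difference between the groups was not tested, because there is no replicate, and the counting interval of the second value (-0.37 to 0.13) includes 0.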

How the results depend on the processing

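No paired analysis was possible because the libraries of a group are pooled in 1 matrix and the matrices carry no replicate number, and for the same reason no replicate could be left out. The log2 ratio between the matrices for Myc with Pvt1 stayed within its counting interval under every alternative run. For the upstream desert it stayed positive, at 1.24 with the mean of O/E over bin pairs. For the downstream desert it was 0.55 from uncorrected read pairs and 0.59 with the mean of O/E. Uncorrected, the log2 O/E of Myc with the upstream desert in WT turned from negative to 0.25, as that value includes the depth of the Myc bin. The lean to the downstream side was 0.87 in WT and 0.35 in the Firre KO-labelled matrix with an anchor of 3 bins. It was 1.97 and 1.48 without bins that overlap a gene. That setting leaves out Pvt1 but keeps the bins opposite it, so the sides do not cover the same distances. With the mean of O/E the lean was 1.09 in the Firre KO-labelled matrix. The difference in lean between the matrices was -0.28 with the mean of O/E and -0.48 without gene bins. The insulation score of Myc depended most on the square. With 240 kb it was -1.01 in WT and -1.25 in the Firre KO-labelled matrix, with 960 kb 0.72 and 0.59, with the plain mean -0.23 and -0.79, and from uncorrected read pairs 0.092 and -0.18. Its difference remained negative throughout, at -0.25 for 240 kb, -0.13 for 960 kb and -0.27 uncorrected, for which no interval was computed. With the square of 960 kb, 2 boundaries were called near Myc in WT, the nearest boundary was 760 kb away in WT and 840 kb in the Firre KO-labelled matrix, and 1 WT boundary was shared, so neither the boundary at -80 kb nor that at 40 kb was called. From uncorrected read pairs the nearest in the Firre KO-labelled matrix was 80 kb away and 1 WT boundary was shared, and under the settings of the report 1 was shared in the same bin. With a delta over 4 bins, 5 and 3 boundaries were called with the nearest at 80 and 40 kb as before and 2 shared within 1 bin, but those at -920, 600, 1000 and 1880 kb moved to -880, 560, 1120 and 1840 kb, and 2 were then in the same bin in both matrices. Called pairs numbered 260 with 5 or more expected read pairs (22.6%, against 24.6% on chromosome 15) and 12 with 20 or more (4.96% against 6.34%). Depth limits single bins beyond 1 Mb, most of which rest on under 10 expected read pairs.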
